A study of Mus musculus with 9 samples.

Results

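Cells of the iPax7 line were compared with cells of the iPax3 line after both had been injected into mouse muscle and taken out again. The samples were chosen by title, 3 arrays of re-isolated iPax7 cells and 3 of re-isolated iPax3 cells, which make 6 of the 9 samples of the series. The other 3 arrays hold satellite cells, which are the muscle's own stem cells, and they enter here as a reference level and in the estimate of the spread. For both re-isolated groups the labels give the host strain as NSG/NSGmdx4cv, the tissue as tibialis anterior (a muscle of the lower leg), the cell type as mononucleated cells and the age as 3 months. The satellite cells came from the same muscle of Pax7-ZsGreen mice of 3 months. NSG mice are immunodeficient and lack mature lymphocytes but keep myeloid and red blood cells, and mdx4cv is a mutant allele of the dystrophin gene. The labels do not say which of the 2 hosts gave which array, by which gate the cells were sorted or whether each group rests on more than 1 clone. Each extract is described as 1500 cells, taken from 3 mice per line over 3 experiments, and its RNA was amplified as cDNA before labelling with Cy3. Nothing in the labels ties a replicate number to an experiment, so the p-values below measure the spread between these samples.

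Pax3 and Pax7 are closely related paired-box transcription factors that stand at the head of the skeletal muscle lineage. Pax3 acts in the embryonic dermomyotome and in progenitors that migrate to the limbs, and Pax7 marks fetal progenitors and adult satellite cells. In work with lines of these names, the letter i stands for a transgene of the factor that doxycycline switches on while pluripotent stem cells differentiate, which yields myogenic progenitors that can be transplanted. The comparison asks whether the factor used to make the progenitors left a difference in RNA levels after the cells had resided in muscle.

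Levels are log2 processed signals with the 75th percentile of each array set to 0, so that a level of 1 is 2-fold above that percentile. Differences are iPax7 minus iPax3 on this log2 scale with the standard error of the limma fit, and n = 3 arrays per group throughout. Values are listed in the order of replicates 1, 2 and 3. Of 41174 probes, 69.1% to 77.3% were well above background on the iPax3 arrays and 56.5% to 73.2% on the iPax7 arrays, with the lowest share on iPax7 array 1. All 3 iPax3 arrays and iPax7 array 1 lay on the same slide, and iPax7 arrays 2 and 3 lay on another, scanned on the same day.

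The array reads a gene through 60-base probes, and some genes have several, so the results below depend on which stretch of a transcript was read. The first 30 bases, 5′ to 3′, are shown for the probes of the 2 factors that define the lines, for the gene with the smallest p-value, and for 2 genes whose probes are set against each other below. Positions are those in the files, on mouse build mm8.
Pax3: agccagcagtcatatatcctctcttatttc
Pax7: ccttgaccccaacaggttttcccaactgtc
Tmem203: actgtccagttttctttatatataagatcg
Tek, main probe: ctctaatgtgactgtatatactgctcggag
Tek, other probe: agttctcatagaacttagcagtgttacccc
Tnc, main probe: cccagagaaaagaaggatttttaccaaagc
Tnc, other probe 1: catttaacttatggggtgattgtcagggaa
Tnc, other probe 2: tcctctagacattgctttcgaaacatggga
The Pax3 probe lies at chr1:78066755-78066814 on the minus strand and the Pax7 probe at chr4:139010525-139010584 on the minus strand. Whether either reads the RNA of a transgene is not given in the sources used here. The Tmem203 probe lies at chr2:25078215-25078274 on the plus strand. The main Tek probe lies at chr4:94366188-94366246 and the other at chr4:94233814-94233873, both on the plus strand. The 3 Tnc probes lie at chr4:63446146-63446191, chr4:63471205-63471264 and chr4:63499575-63500338, on the minus strand. The last of these spans 764 bases of genome for a probe of 60, so its match is split.

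No gene passed the test between iPax7 and iPax3 cells in the fit used here. At a Benjamini-Hochberg adjusted p of 0.05, limma called 0 of 22700 genes (0%), and the smallest adjusted p was 0.0659, for Tmem203, which alone was called under 3 of 24 other settings. At an unadjusted p under 0.05 there were 930 genes (4.1%), 395 of them higher in iPax7 (1.74%) and 535 lower (2.36%), where 1135 would be expected without any difference. This count depends on the setting: with the slide as a random block it was 1775 of 22700, above that number. The 3 arrays of a group did not overlap the 3 of the other for 2112 of 22639 genes (9.33%), with iPax7 higher for 1008 (4.45%) and lower for 1104 (4.88%). The median difference over all genes was 0.07.

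**Figure D1:**
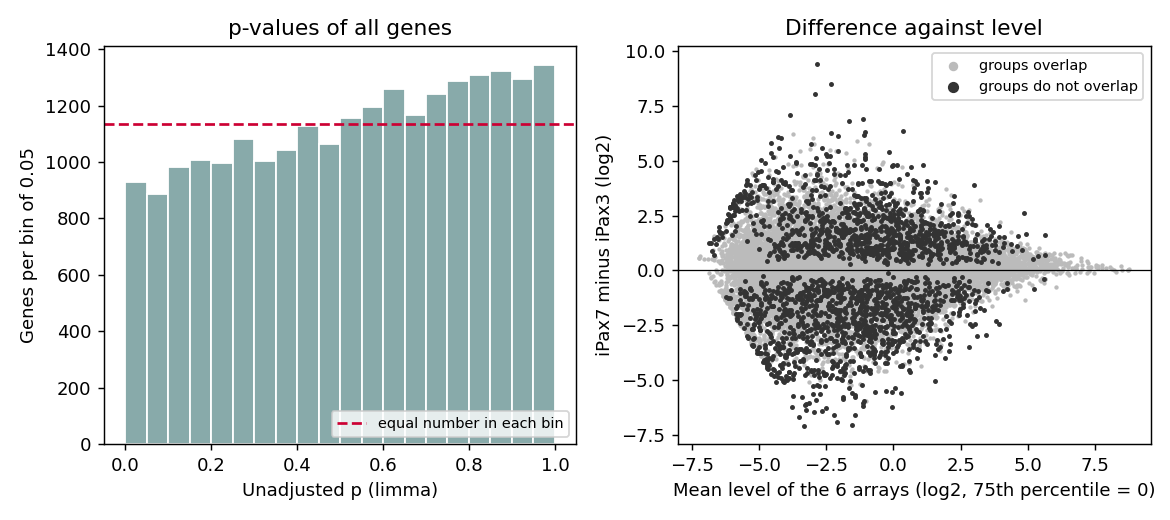
Left, number of genes per bin of unadjusted limma p-value for iPax7 against iPax3, with a dashed line at an equal number per bin; the first bin holds 930 genes, below the line. Right, log2 difference of each gene (iPax7 minus iPax3) against its mean level on the 6 arrays, with genes whose groups do not overlap in black; they lie on both sides of 0 at every level.

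The arrays leave room for sizeable differences that this design does not resolve. The median standard error was 1.04 and the median 95% interval reached 2.34 log2 units to either side of the estimate. The interval lay within 2 log2 units of 0 for 3257 genes and within 1 log2 unit for 0, so no gene was shown to be level between the lines to within a 2-fold change. The estimated difference was over 1 log2 unit for 7970 genes, over 2 for 2920 and over 4 for 332. Precision rose with the level. With genes cut into 5 equal bins by mean level on the 6 arrays, in the dimmest bin the median size of the difference was 0.81 and the median standard error 1.25, and in the brightest bin they were 0.46 and 0.85. The share of genes at an unadjusted p under 0.05 was 5.15% in the dimmest bin and 1.87% in the brightest.

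Whole-array profiles were about as alike between the lines as within them. Across genes, which are not independent replicates, pairs of iPax3 arrays correlated at a mean Pearson r of 0.732 (0.712 to 0.744), pairs of iPax7 arrays at 0.682 (0.662 to 0.716) and pairs of 1 array from each line at 0.701 (0.652 to 0.774). Satellite arrays correlated with iPax3 arrays at a mean of 0.615, with iPax7 arrays at 0.605 and with each other at 0.643 (0.621 to 0.673). Each satellite array lay on a slide of its own. iPax7 array 1 stood apart: it correlated with the 3 iPax3 arrays of its own slide at a mean of 0.659, while iPax7 arrays 2 and 3, on the other slide, correlated with the iPax3 arrays at a mean of 0.722.

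**Figure D2:**
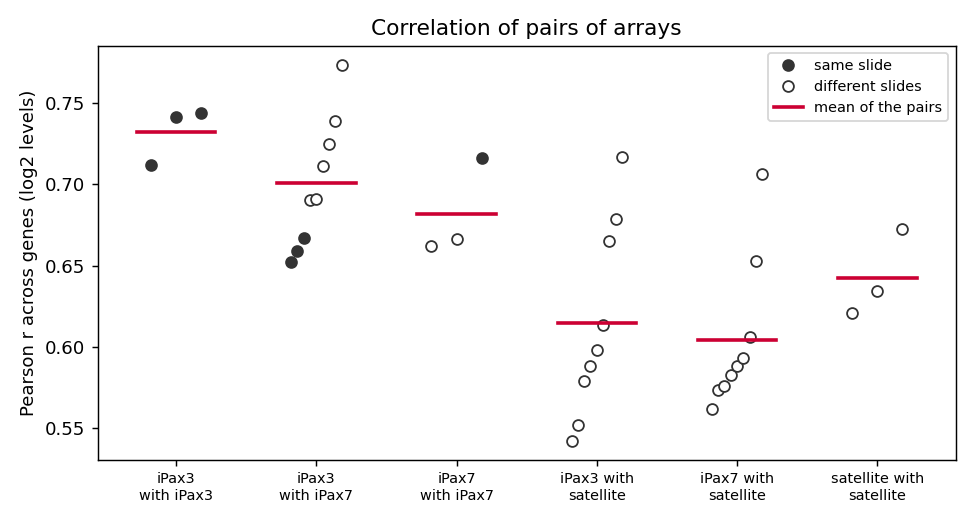
Pearson r across genes for each pair of arrays, grouped by the groups of the pair; filled points are pairs on the same slide, open points pairs on different slides, and red bars the mean of each kind of pair. Pairs that join the lines (mean 0.701) lie among the pairs within a line (means 0.732 and 0.682).

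The 2 defining factors did not separate the lines. Pax7 stood at −3.15, −0.53 and −3.52 on the iPax3 arrays and at −3.90, −3.25 and −3.76 on the iPax7 arrays. The groups overlapped, and the difference was −1.24 ± 1.21 (95% interval −3.97 to 1.50). Satellite cells gave 2.89, 3.53 and −0.66, so 2 of their 3 arrays lay above all 6 re-isolated arrays. Pax3 stood at −4.36, −4.98 and −3.98 in iPax3 cells and at −2.93, −5.28 and −3.72 in iPax7 cells, a difference of 0.46 ± 1.12 (−2.06 to 2.98), and it was well above background on 2 of 3 arrays in each line. Of the 11 measured genes of the network around these factors, which includes their cofactors such as Eya2, 1 had groups that did not overlap (9.33% over all genes). That was Eya2, at −0.46, −1.22 and −2.53 in iPax3 and 0.07, 0.56 and −0.30 in iPax7 cells, a difference of 1.52 ± 0.82 that did not pass the test.

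Myogenic genes ranged from −4.54 (Id2) to 2.08 (Mef2c, a muscle transcription factor), with a median standard error of 1.02. Myod1, the determination factor of muscle, stood at 3.10, 3.22 and 2.71 in iPax3 cells and at 3.84, 2.99 and 3.10 in iPax7 cells, a difference of 0.30 ± 0.66 (−1.19 to 1.80). Itga7, the laminin receptor subunit of myogenic cells, stood at 4.65, 4.89 and 4.47 against 5.23, 4.37 and 4.52, a difference of 0.04 ± 0.68 (−1.50 to 1.58). These intervals are narrower than the median one and still allow differences of over 2-fold. Of 24 measured genes of myogenic determination and differentiation, 10 were higher and 14 lower in iPax7, with a median of −0.13. The groups did not overlap for 2 upwards and 1 downwards (4.45% and 4.88% over all genes). The latter was Id2, an inhibitor of basic helix-loop-helix factors, at 1.71, 0.82 and 1.67 against −6.35, −0.73 and −2.32, and its other probe was above background on only 1 of 3 arrays in each line, which leaves it no use as a check. The 2 upwards were Chrna1, a subunit of the acetylcholine receptor (1.06 ± 1.11), and Des, the muscle intermediate filament desmin (1.11 ± 0.76). None of these passed the test.

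The satellite cell and quiescence list was split evenly, with 15 of 30 genes higher and 15 lower and a median of −0.08. Chrdl2, a BMP antagonist of satellite cells, stood at 4.54 to 5.44 on the satellite arrays and between −5.19 and −3.43 on all 6 re-isolated arrays, with a difference between the lines of 0.16 ± 0.69. Fgfr4, a receptor of myogenic progenitors, was at 1.71, 1.70 and 1.71 in iPax3 cells and at 2.45, 1.12 and 1.06 in iPax7 cells, against 4.46 to 5.04 in satellite cells. Groups did not overlap for 4 of the list (9.33% over all genes). Tek is described with the endothelial genes. Col5a3, a fibrillar collagen chain, was at 0.07, 1.45 and 1.04 against 4.20, 2.46 and 3.43, a difference of 2.51 ± 0.83. Cdkn1c, an inhibitor of cyclin-dependent kinases, was at 0.79, 2.28 and 2.30 against 3.29, 3.43 and 3.32 (1.56 ± 0.72), and Col15a1, a collagen of the basement membrane zone, was lower (−1.78 ± 0.67). None of these passed the test.

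Both lines carried high levels of fibroblast genes. Dcn, a proteoglycan of connective tissue, stood at 7.58, 6.76 and 7.87 in iPax3 cells and at 8.37, 7.19 and 7.36 in iPax7 cells, and between −1.71 and −0.17 in satellite cells. Pdgfra, the receptor that marks fibro-adipogenic progenitors, stood at 4.67, 4.79 and 4.40 against 5.48, 5.20 and 3.81, and between −4.36 and −2.24 in satellite cells. Neither separated the lines: the differences were 0.24 ± 0.75 for Dcn and 0.21 ± 0.79 for Pdgfra, and −0.06 ± 0.75 for Col1a1, a chain of type I collagen. In RNA from mixed cells, fewer cells of a type and less RNA per cell cannot be told apart. Of 24 genes of the fibro-adipogenic and fibroblast list, all measured, 15 were higher and 9 lower in iPax7, with a median of 0.22. The groups did not overlap for 4 upwards and 1 downwards (4.45% and 4.88% over all genes). Pi16, a marker of adventitial fibroblasts, was at 3.09, 1.87 and 5.69 in iPax3 cells and at 6.64, 5.98 and 5.81 in iPax7 cells, a difference of 2.59 ± 1.27. Ly6a, the surface antigen Sca-1, was at 2.98, 2.19 and 3.31 against 4.43, 4.48 and 4.30, a difference of 1.58 ± 0.73. Osr1 and Mfap5 were the other 2 upwards and Smoc2 the 1 downwards, all short of the threshold.

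**Figure D3:**
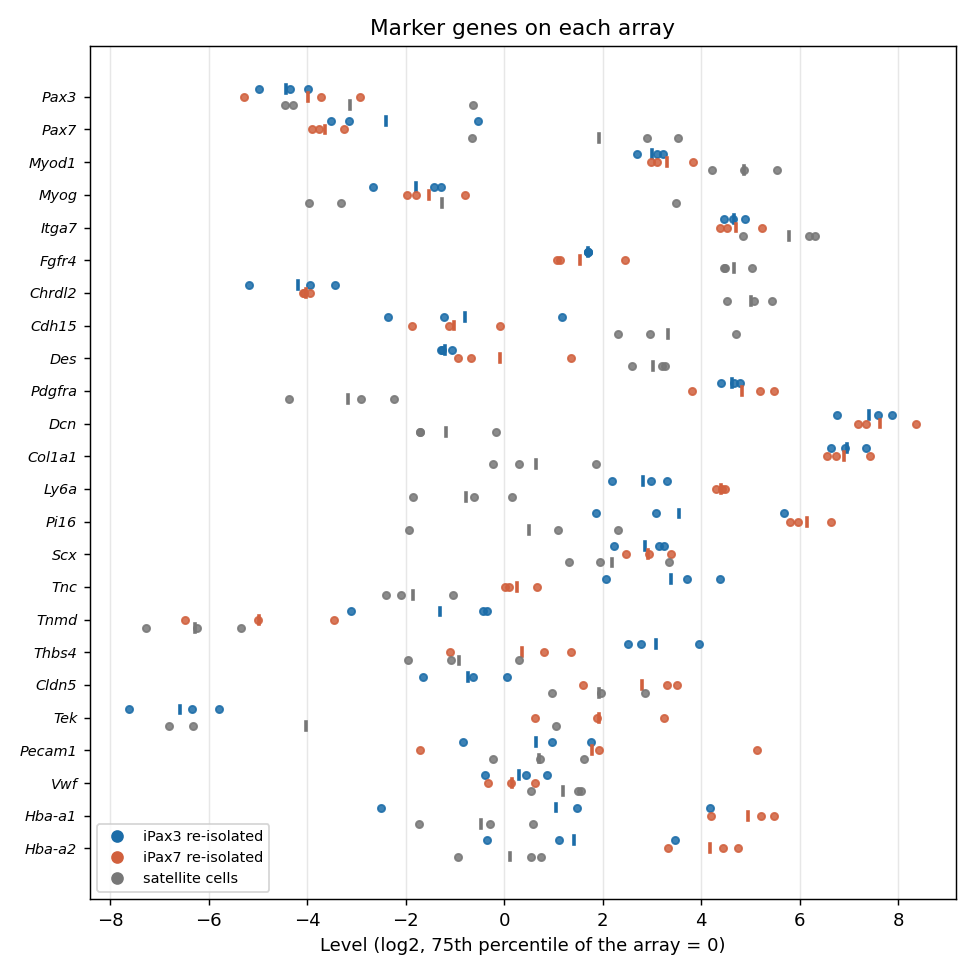
Levels (log2, 75th percentile of the array at 0) of 24 genes on each array of iPax3, iPax7 and satellite cells; points are arrays and bars group means. Myod1, Itga7, Dcn and Pdgfra overlap between the 2 lines, while Tnc, Cldn5 and Tek do not, and none of these genes passed the test.

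The genes nearest to the threshold with iPax7 higher were led by Tmem203, a transmembrane protein of the endoplasmic reticulum. It was at −7.61, −7.34 and −7.62 on the iPax3 arrays, where it was not well above background on any, and at 3.97, 0.30 and 1.33 on the iPax7 arrays. The difference was 9.39 ± 0.93, at least 135-fold against the lowest signal counted as above background, with an adjusted p of 0.0659. Here and below, "at least" refers to that floor under the dimmer mean and takes no account of the spread between arrays. It was not well above background on any satellite array either (−6.93, −6.27 and −6.84), so its probe passed the filter on dim probes through the iPax7 arrays alone. A gene that enters in this way has to differ in the data at hand, and the same holds for Pcolce2 and Vmn1r27 among the genes below. Tmem203 was called with the slide as a random block (adjusted p = 0.0184), with quantile normalisation (0.0302) and with all probes of a gene averaged (0.0459), and its adjusted p ran up to 0.900 under the others. Within the slide that holds both lines, iPax7 array 1 lay 11.5 above the iPax3 mean. It was read by 1 probe.

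The other 14 genes that led in this direction had adjusted p-values up to 0.808 and differences from 3.80 upwards. Pcolce2, an enhancer of procollagen processing, was at −7.41, −5.87 and −7.57 in iPax3 cells and at 3.30, −1.58 and 1.54 in iPax7 cells, at least 78.7-fold higher (adjusted p = 0.491). S1pr1, the sphingosine-1-phosphate receptor of endothelium and lymphocytes, was at −7.24, −7.33 and −7.61 against −0.81, −0.85 and 0.77, at least 30.2-fold higher (adjusted p = 0.491). Stx12, a syntaxin of endosomes, was at −7.07, −7.13 and −7.40 against −1.16, −1.18 and −1.26, at least 16.2-fold higher (adjusted p = 0.764). All 3 were not above background on any iPax3 array and above it on every iPax7 array. Sdhaf1, an assembly factor of respiratory complex II, was measured in both lines, at −4.19, −4.43 and −4.80 against −1.12, 0.54 and −1.44, a difference of 3.80 ± 0.72. So was Eif2b5, a subunit of a translation initiation factor, at −3.06, −2.32 and −3.13 against 3.43, 1.80 and 0.13, a difference of 4.63 ± 0.88. Vhl, the ubiquitin ligase subunit that targets hypoxia-inducible factors, differed by 6.27 ± 1.28. The adjusted p was 0.600 for Sdhaf1, Eif2b5 and Vhl. The rest were Cchcr1, Gpatch4, Tek, Atxn7l3, Grap, Tbcb, Nmnat2 and Vmn1r27. The satellite mean lay nearer to the iPax3 than to the iPax7 mean in 12 of these 15 genes, and in 6 of the 15 described next, where iPax7 was lower. The genes were chosen for being bright in 1 line, and some passed the filter through that line alone, with satellite cells dim too. The counts therefore do not measure which line the satellite cells resemble.

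With iPax7 lower, the leading genes lay close together in p-value. Ift88, a protein of cilium transport, was at 0.20, −0.90 and 0.24 in iPax3 cells and at −4.53, −6.09 and −5.58 in iPax7 cells, where it was not above background on any array, a difference of −5.25 ± 0.71, or at least 22.6-fold. P2ry1, a purine receptor, was at 0.26, −1.68 and −1.28 against −6.43, −6.73 and −6.66, at least 13.4-fold lower. Reps2, which takes part in endocytosis of growth factor receptors, was at −0.83, 0.25 and 0.06 against −6.01, −6.04 and −5.34, at least 22.2-fold lower. Clec11a, a secreted factor of bone and blood progenitors, was at 0.61, −0.77 and 0.38 against −4.99, −6.75 and −5.76, at least 26.4-fold lower. All 4 had an adjusted p of 0.239, and each stayed under background on all 3 iPax7 arrays. Ift88, P2ry1, Fam43a and Lrrc72 were not above background on any satellite array either, so their probes passed the filter through the iPax3 arrays alone and had to differ. Ntf5, the neurotrophin also called NT-4, had the smallest difference among the 15, −3.03 ± 0.62, and was above background on every array of both lines at −0.49, −0.28 and 0.28 against −3.46, −2.78 and −3.35 (adjusted p = 0.600). Nr4a3, an immediate early nuclear receptor, was at −1.81, −0.39 and −2.18 against −6.39, −6.66 and −4.42, with satellite levels of −0.61, −0.42 and −1.81. Atf7ip, Cyp51, Ptprk, Ahsa2, Fam43a, Akr1b8, Lrrc72, Ppp1r3d and Ednra made up the rest. Of the 30 leading genes, 6 with iPax7 higher and 8 with iPax7 lower had only a bound in the dimmer line.

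**Figure D4:**
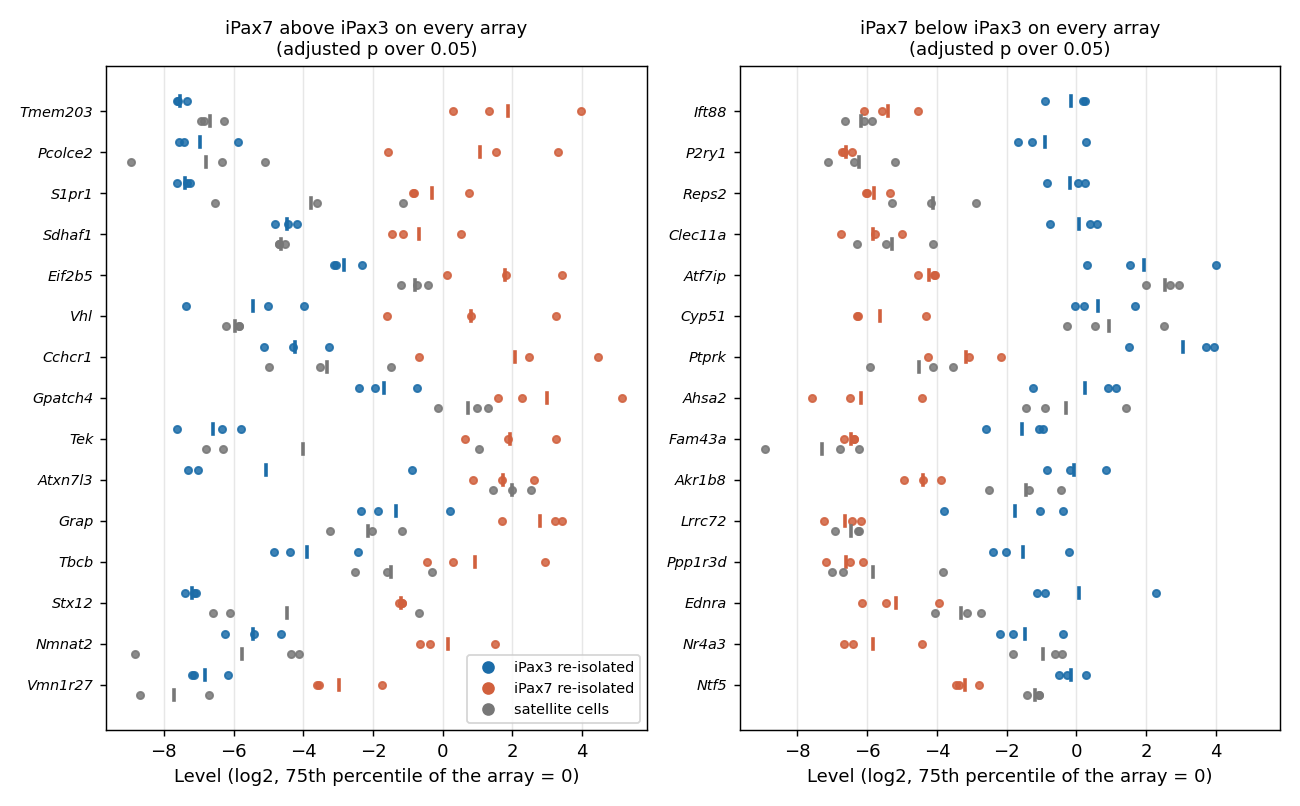
Levels (log2, 75th percentile of the array at 0) on each array of the 15 genes of lowest p-value in each direction among named genes whose groups do not overlap; points are arrays and bars group means of iPax3, iPax7 and satellite cells. The lines are apart for every gene by construction, and none had an adjusted p below 0.0659.

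Probe counts above background were uneven between the lines. Of the 41174 probes, 38 (0.0923%) were well above background on all 3 iPax7 arrays and on no iPax3 array, and 277 (0.673%) showed the opposite pattern. iPax7 array 1 had fewer probes above background than any of the other 5 arrays, which moves with this count, and its part in the count was not tested.

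Further probes of the same gene gave a check on the leading differences, since they played no part in choosing them, though they were read on the same arrays. Over all 7106 genes with more than 1 kept probe, 55.7% of the other probes had the sign of the probe that stood for the gene. Among genes whose groups did not overlap, 57.2% of the other probes had the same sign where iPax7 was higher and 64.2% where it was lower. The median size of the difference was 1.62 on the main probes and 0.27 on the others, in the direction of the main probe, where iPax7 was higher, and 1.95 and 0.48 where it was lower. Some of the other probes were themselves near background. Of the 30 leading genes, 7 had another probe, and 10 of 13 such probes had the same sign. The other Tek probe was above background on only 1 of 3 arrays in each line and gives no check on the main one. The main Gpatch4 probe differed by 4.69 and its other probe by −0.54. For Ptprk, a receptor phosphatase, the main probe differed by −6.23 and the other kept probe that was above background on all 6 arrays by 0.33. All 3 kept Ednra probes, for the endothelin A receptor, had lower means in iPax7, by −5.27, −3.44 and −2.31. In the fit within the shared slide, where another probe than the main one stood for Ednra, it differed by 1.99.

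Genes of tendon made up the list with the lowest median. Of 13 measured, 5 were higher and 8 lower in iPax7, with a median of −1.20, and the groups did not overlap for 2 upwards and 5 downwards, where the shares over all genes were 4.45% and 4.88%. Tnc, the matrix glycoprotein tenascin C, stood at 4.38, 2.07 and 3.72 in iPax3 cells and at 0.67, 0.03 and 0.11 in iPax7 cells, a difference of −3.12 ± 0.79 (−4.91 to −1.33, adjusted p = 0.828). Each iPax7 array was below each iPax3 array, satellite cells lay lower still at −1.04, −2.09 and −2.40, and other probe 1 of Tnc differed by −2.61. Other probe 2 of Tnc was above background on all 3 iPax3 arrays and on no iPax7 array. Thbs4, a thrombospondin of tendon and muscle matrix, stood at 2.77, 2.52 and 3.95 against −1.10, 0.81 and 1.35, a difference of −2.73 ± 0.92, with −2.83 on its other probe. Tnmd, the tendon membrane protein tenomodulin, stood at −0.44, −0.34 and −3.11 against −3.45, −6.48 and −5.00 (−3.68 ± 1.08), and Chodl, a membrane lectin, at 1.43, 0.30 and 1.55 against −0.84, −2.18 and −0.91 (−2.40 ± 0.78). Mkx, a tendon transcription factor, also did not overlap downwards, by −0.28 ± 0.77. The remaining lower members were not among these 5, though all lay at or below the list's median. Further members had estimates in the opposite direction or near 0. Comp, a cartilage and tendon matrix protein, was at −1.94, −3.03 and −4.82 against −1.72, 3.08 and 0.57, a difference of 3.91 ± 1.34, and Cilp2 was higher by 1.92 ± 0.98. Scx, the transcription factor that defines tendon progenitors, was at 3.24, 3.14 and 2.22 against 3.38, 2.93 and 2.47, a difference of 0.06 ± 0.75. Among only those probes above background on all 6 arrays the list's median was −0.11 over 10 genes, a setting that leaves out members that were dim in iPax7 cells, such as Tnmd.

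The basement membrane list had the next lowest median, −0.56 over 16 measured genes, of which 4 were higher and 12 lower. Col15a1 stood at 4.43, 3.74 and 4.65 in iPax3 cells and at 2.57, 2.01 and 2.88 in iPax7 cells, and its other probe differed by −1.22. Col4a2, a chain of type IV collagen, stood at 4.88, 4.12 and 5.85 against 0.79, 3.39 and 3.78, a difference of −2.30 ± 1.07. Smoc2, a matricellular calcium-binding protein, stood at 2.55, 2.83 and 3.59 against 0.26, 1.68 and 0.78 (−2.09 ± 0.75), and its other probe differed by −0.96. In the fit within the shared slide, where another probe stood for the gene, Smoc2 differed by 0.85. Of this list, 1 member did not overlap upwards and 3 downwards (4.45% and 4.88% over all genes). The 3 were Col15a1, Col4a2 and Smoc2, and Lamc1, a laminin chain, was the 1 upwards (1.28 ± 1.29). In the list of fibrillar matrix and proteoglycans, 19 of 37 were higher and 18 lower, with a median of 0.10. Among matrix proteases and inhibitors the difference of lowest p was that of Mmp16, a membrane-type metalloprotease, at 1.27, 0.15 and 2.28 against −6.38, −1.45 and −5.12, but its other probe differed by −0.07.

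Genes of endothelium made up the list with the highest median, 0.80, with 15 of 20 higher and 5 lower in iPax7. Groups did not overlap for 3 upwards and 1 downwards (4.45% and 4.88% over all genes). Tek, the angiopoietin receptor, was at −5.79, −6.34 and −7.61 in iPax3 cells, not above background on any array, and at 3.25, 1.88 and 0.63 in iPax7 cells, at least 140-fold higher on its main probe (adjusted p = 0.710). Cldn5, a tight junction protein of endothelium, was at −0.63, 0.07 and −1.65 against 3.31, 3.50 and 1.61, a difference of 3.54 ± 0.85 (adjusted p = 0.808). Lyve1, the hyaluronan receptor of lymphatic endothelium and some macrophages, was at −7.53, −3.85 and −6.96 against −3.26, −0.30 and 0.06, a difference of 4.95 ± 1.24 (adjusted p = 0.828). The other Lyve1 probe, above background on 2 of 3 iPax3 and 1 of 3 iPax7 arrays, differed by −0.86. Other defining markers did not separate the lines. Pecam1 was at 0.97, −0.83 and 1.77 against 5.13, 1.92 and −1.71, and Vwf, the von Willebrand factor, was at 0.87, 0.44 and −0.40 against 0.13, −0.32 and 0.64. Summed over the 20 members on a linear scale with the 75th percentile of the array at 1, the list came to 9.10 to 10.5 on the iPax3 arrays, 78.3, 27.8 and 15.2 on the iPax7 arrays and 20.4 to 26.1 on the satellite arrays. The median difference of the list was 0.27 within the shared slide. Of the list, 2 members, Tek and Cdh5, were not above background on any iPax3 array. The sum was highest on iPax7 array 1, while the median level of the members was lowest there: −2.92, −1.43 and −1.37 on the iPax7 arrays, against −2.09, −2.69 and −2.79 on the iPax3 arrays. The part of endothelial cells in the values of Tek, Cldn5 and S1pr1 was not tested.

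Markers of other cells that muscle holds gave a mixed picture. Of 15 genes of pericytes and smooth muscle, 12 were higher and 3 lower in iPax7, with a median of 0.53. Rgs5, a pericyte regulator of G-protein signalling, was at −5.86, −5.03 and −4.37 against 2.73, −3.85 and −0.27, and Pdgfrb, the pericyte receptor for platelet-derived growth factor, was lower at −6.49, −4.18 and −2.48 against 1.31, −2.0 and −1.07 in iPax3 cells. Of 8 erythroid genes, the α-globin gene Hba-a1 was at 4.18, 1.47 and −2.50 in iPax3 cells and at 5.48, 5.21 and 4.19 in iPax7 cells, a difference of 3.91 ± 1.50. Its near-identical copy Hba-a2, whose RNA the array may not tell apart from it, differed by 2.77 ± 1.04, and the β-globin gene Hbb-bt by −0.45 ± 0.70 on its main probe. The 2 other kept Hbb-bt probes went the opposite way, by 0.98 (above background on every array of both lines) and 1.73. The erythroid sum was 5.12 to 39.2 on the iPax3 and 35.4 to 77.3 on the iPax7 arrays, and the part of red blood cells in other values was not tested. Of 21 leukocyte and macrophage genes, 11 were higher and 10 lower, with a median of 0.02 and sums of 13.2 to 44.8 against 13.8 to 76.8. Ptprc, the pan-leukocyte antigen CD45, was at −3.66, −3.90 and −3.42 against 2.01, 0.55 and −3.73, so 2 iPax7 arrays lay above all iPax3 arrays and the other did not.

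Growth factor pathways held single genes that stood apart, with list medians of −0.21 to 0.21. Of 32 genes of the FGF and IGF axis, 15 were higher and 17 lower, with a median of −0.02. Fgf2, a mitogen of myogenic and connective tissue cells, was at −2.43, −2.54 and −1.58 in iPax3 cells and at −0.32, 0.67 and 0.50 in iPax7 cells, a difference of 2.47 ± 0.67 (0.95 to 3.99, adjusted p = 0.883), with 1.38 on its other probe. Fgf1 went the opposite way, −0.22, 1.34 and 1.79 against −2.45, −0.43 and −0.65 (−2.15 ± 0.99), but its other probe differed by 0.71. Igfbp5, a binding protein of insulin-like growth factors, was at 4.30, 2.78 and 4.51 against 5.77, 5.61 and 4.84, and both its probes were higher, by 1.55 and 1.59. In the BMP and TGF-beta axis, 22 of 36 genes were higher and 14 lower, with a median of 0.21. Groups did not overlap for 4 of the 36, against 9.33% over all genes, and these were, all with iPax7 lower, the ligand Bmp5 (−2.01 ± 0.76), the type I receptors Acvr1 (−1.49 ± 0.76) and Tgfbr1 (−0.99 ± 0.83), and the target Id2. Bmp5 stood at 3.69, 3.57 and 3.97 against 0.56, 2.57 and 2.06, and it was between −6.41 and −5.10 in satellite cells. Of 37 Wnt pathway genes, 16 were higher and 21 lower, with a median of −0.07. Nkd2, an inhibitor of Wnt signalling, was at −0.02, −0.04 and 0.25 against −2.54, −4.86 and −4.77, a difference of −4.12 ± 1.02 (adjusted p = 0.828), and its other probe was above background on all 3 iPax3 arrays and on no iPax7 array. Of 20 Notch pathway genes, 1 did not overlap (9.33% over all genes), the coactivator Maml1 (−2.56 ± 0.92). Among 27 chemokine and cytokine genes, Ackr3, an atypical chemokine receptor, was at −7.30, −5.03 and −4.06 against −0.76, −1.30 and 0.22, a difference of 4.85 ± 1.25 (adjusted p = 0.828).

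Genes of developmental stage and position showed no common direction. Of 39 imprinted genes, 15 were higher and 24 lower, with a median of −0.16. The groups did not overlap for 2 upwards and 3 downwards (4.45% and 4.88% over all genes). Dlk1, a paternally expressed membrane protein of fetal muscle and other immature cells, was at 0.84, 1.22 and 3.53 against −2.11, 0.75 and −1.76, a difference of −2.91 ± 1.07, with −4.21 on its other probe. Ndn, also paternally expressed, went the opposite way at 0.67, 1.08 and 0.43 against 3.79, 2.45 and 2.07 (2.05 ± 0.79). Snurf was at 1.36, −4.36 and 0.70 against −5.97, −4.54 and −5.47, not above background on any iPax7 array. Igf2, the fetal growth factor, was high in both lines at 6.04, 5.86 and 6.49 against 6.27, 5.84 and 5.80. In the Hox A cluster 8 of 11 genes were higher, with a median of 0.57, and 0 of the 11 had groups that did not overlap (9.33% over all genes). In the fetal stage list, 8 of 16 genes were higher and 8 lower, with a median of −0.01, and among 16 developmental sarcomere genes 9 were higher and 7 lower, with a median of 0.09.

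Among genes of general cell state, the cytosolic ribosomal proteins were higher in iPax7 for 38 of 45, with a median of 0.58. The groups did not overlap for 6 upwards and 1 downwards (4.45% and 4.88% over all genes). The list's median levels lay in the range of the brightest of the 5 bins by level. In that bin 226 of 4510 genes did not overlap upwards and 144 downwards. Rps15 was at 2.41, 2.65 and 1.79 against 4.88, 2.88 and 4.06, a difference of 1.66 ± 0.86, and Rpl14 was the 1 downwards (−3.66 ± 1.30). The medians of the list on single arrays were 4.15, 3.58 and 4.75 in iPax3 cells and 5.27, 4.09 and 4.66 in iPax7 cells, so the groups overlapped and iPax7 array 1 was the highest. Of the 6 arrays, that one also had the highest sum over all genes, and within its slide the list's median difference was 1.39. Of 36 MHC class I and interferon genes, 24 were higher, with a median of 0.30, and 4 did not overlap, all upwards (4.45% over all genes): Mx2, Iigp1, Irgm1 and Ifit1. Mx2, an interferon-induced GTPase, was at −2.28, −0.78 and −0.55 against 0.74, 0.45 and 0.66, a difference of 1.82 ± 0.71. Of 28 immediate early genes, 10 were higher and 18 lower, with a median of −0.29, and 4 did not overlap, all downwards, where the share over all genes was 4.88%. These were Nr4a3, Egr2, Fosl1 and Fosb. Egr2 was at 2.57, 1.59 and 3.23 against −3.41, −3.60 and 1.55 (−4.28 ± 1.42), while Fosb was at 5.66, 5.53 and 5.77 against 5.22, 4.62 and 4.53 (−0.86 ± 0.67). Within the shared slide the median of this list was 0.54, the opposite direction.

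Of 30 cell cycle genes, 19 were higher and 11 lower, with a median of 0.28. Among them 4 did not overlap upwards and 1 downwards (4.45% and 4.88% over all genes). Ccna2, a cyclin of S and G2 phase, was at −5.61, −5.19 and −5.50, not above background on any iPax3 array, and at −4.24, −1.37 and −1.55 in iPax7 cells, at least 7.08-fold higher (adjusted p = 0.899), whereas Cdk1, its partner kinase, was lower by −1.93 ± 1.35 and not above background on any iPax7 array. Of 39 respiratory chain genes, 21 were higher and 18 lower, with a median of 0.06. Single subunits differed in both directions there: Cox5a was at −4.62, −4.42 and −3.75 against −1.56, −1.58 and −2.33, and Sdhb was at 1.72, 1.64 and 1.49 against −4.60, −2.89 and 0.83. Among 22 cholesterol synthesis genes, Cyp51, the lanosterol demethylase, differed by −6.25 ± 0.97 on its main probe and by −2.47 and −0.48 on the others, and the list had a median of 0.03. For the dystrophin glycoprotein complex, 11 of 19 genes were higher and 8 lower, with a median of 0.06.

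Over all 41 lists, the medians ran from −1.20 to 0.80, and 34 lay within 0.35 of 0. Within the slide that holds both lines, with 1 iPax7 array, they ran from −1.40 to 1.39 and 19 lay within 0.35 of 0. No list held a gene that passed the test.

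**Figure D5:**
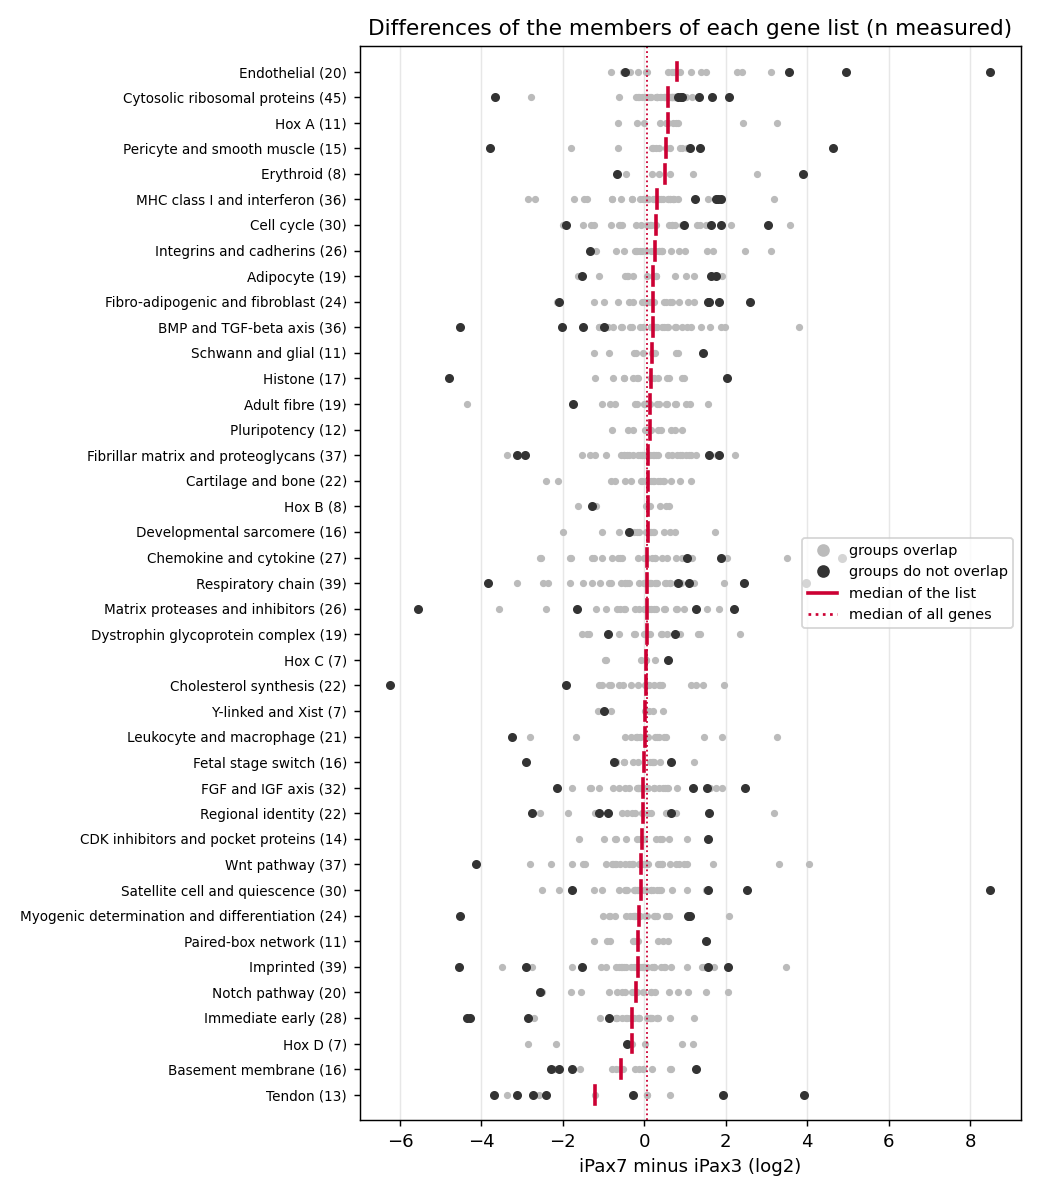
Log2 difference (iPax7 minus iPax3) of each measured member of 41 gene lists, sorted by median; black points are genes whose groups do not overlap, red bars the median of the list and the dotted line the median of all genes (0.07). Endothelial genes have the highest median (0.80) and tendon genes the lowest (−1.20), and members of every list lie on both sides of 0.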

How the data were processed

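RNA of 9 samples was read on single-colour Agilent arrays with 45018 spots, 1639 of them controls. The deposited scanner intensity values were made by the authors, whose file headers name Feature Extraction 10.5.1.1, with detrending and background subtraction. The flag for well above background is set there at 13 standard deviations. A deposited value table holds log2 values of 31918 spots, made with limma per the submitters' processing notes, its version not given in the sources used here. Set against log2 of each array's mean signal, its columns correlated at 0.988 to 0.999 and had medians of 7.63 to 7.71. Its scale is thus an uncentred log2; the steps behind it are unknown, and it served as an alternative only.

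The processed signal was taken as log2, less the 75th percentile of each array over non-control spots. Outlier spots (88 to 135 on the re-isolated arrays) were left out, 0 were saturated, and spots of a probe were averaged. Probes above background on at least 3 of 9 arrays were kept (32961 of 41174), and the probe of highest mean stood for its gene. Of all probes, 33102 were named through the GRCm38.p6 gene table or carry a current symbol there, and 8072 kept the file's name. limma 3.58.1 in R 4.3.3 fitted 3 group means over all 9 arrays, with 6 residual and 3.2 prior degrees of freedom, two-sided, with Benjamini-Hochberg adjustment over 22700 genes. The script was tested on simulated data. The number of arrays limits the precision. A probe under background on a whole group has only a bound there, the other group's mean over the lowest signal above background, as "at least N-fold".

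Named genes were Pax3 and Pax7, the 15 of lowest p per direction among genes whose groups did not overlap and whose brighter group was above background on 3 arrays (predicted or unnamed loci left out, 190 and 285), and up to 4 of lowest p per list. Other genes, such as Myod1, Dcn and Scx, were named after their values were seen. Members and lists were chosen with earlier results of these data known. Same-numbered arrays of the lines did not deviate together (r of 0.041, 0.062 and −0.0068), so no block by replicate number was used. That check does not bear on the slide, which was left out of the main fit. Arrays of a slide were correlated (consensus correlation 0.431), and the slide is partly tied to the line. Alternatives covered background, scaling, filters, probe choice, slide, scan day and each array left out.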

Additional observations from a re-analysis of the deposited data

How the results depend on the processing

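The count of genes that differ was 0 in 21 of 24 alternatives and 1 in the other 3. That gene was Tmem203 each time: 1 gene with quantile normalisation (adjusted p = 0.0302), 1 with all probes of a gene averaged (0.0459) and 1 with the slide as a random block (0.0184, consensus correlation 0.431). Over all alternatives with a value its difference ran from 4.96 to 11.5 and its adjusted p from 0.0184 to 0.900. With any 1 iPax7 array left out, its probe no longer passed the filter. Leaving out each array in turn gave counts from 0 to 0, with 811 to 1250 genes at an unadjusted p under 0.05. With the replicate number as a block, in a fit of the 6 re-isolated arrays, 0 genes were called, the smallest adjusted p was 0.900 and 1087 genes had an unadjusted p under 0.05. The pairing by number was not borne out by the deviations of the arrays. With the slide as a random block, 1775 of 22700 genes had an unadjusted limma p under 0.05. That is above the 1135 expected without any difference, while the 930 of the main fit lay below it. A fixed slide block leaves iPax7 array 1 against the 3 iPax3 arrays. The median difference over all genes was 0.13 in that fit and the same within that slide. With the deposited value table, 0 genes were called, with a smallest adjusted p of 0.349. Scan day as a fixed block and within the day is the fit of the 6 arrays, which share a day (0 genes, smallest adjusted p 0.171).

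Of the 30 leading genes, 26 kept their direction under every alternative that gave them a value, and Cyp51, Ednra, Gpatch4 and Ptprk did not. Within the shared slide another probe stood for Ednra, which differed by 1.99 there. The main Ednra probe was at −6.15 on iPax7 array 1, below every iPax3 array. The cause was otherwise not tested. Of 41 list medians, 8 kept their direction: Hox A, tendon, basement membrane, MHC class I and interferon, endothelial, pericyte and smooth muscle, cell cycle and cytosolic ribosomal proteins. That direction was nominal for cell cycle, whose median came to 0.00037 within the shared slide (0.13 over all genes there), and for MHC class I and interferon, whose lowest was 0.029. Within that slide 17 of the 41 list medians moved by more than the spread. Signal over background limits the dimmest genes, for which the median standard error was 1.25.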
